A study of Mus musculus with 4 samples.

Results

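Cdx1, Notum, Axin2, Sp5, Lef1, Nkd1, Ccnd1, Tcf7, T and Rnf43 are textbook target genes of canonical Wnt signalling, and their ribosome footprints were followed through mouse embryonic stem cells (ESCs) and embryoid bodies (EBs). They were picked by name and are 10 of the 20716 genes in the deposited table. The RefSeq coding sequences listed for each were summed. All 10 had at least 1 entry, and 5 of them (Cdx1, Notum, Axin2, Ccnd1 and Tcf7) had a mean normalised count of at least 25 over the 4 libraries. The 5 that did not reach that limit were Sp5, Lef1, Nkd1, T and Rnf43, and they are given by their reads.

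There was 1 library from each of 4 groups on a C57BL/6 background: Mettl3-KO EBs, WT EBs, Mettl3-KO ESCs and WT ESCs. Mettl3 encodes the enzyme that adds N6-methyladenosine to mRNA. ESCs of both genotypes were held in the naive ground state in serum-free N2B27 medium with human LIF, the GSK3 inhibitor CHIR99021 at 1 to 3 µM and the MEK inhibitor PD0325901 at 1 µM. EBs, aggregates in which such cells differentiate, were made from 8 to 21 days of culture on non-adherent plates in medium with 15% fetal bovine serum, and the list of its components names neither LIF nor the inhibitors. The day on which an EB library was taken is unknown here. Withdrawal of the GSK3 inhibitor therefore cannot be told apart from withdrawal of LIF and of the MEK inhibitor, from the addition of serum, or from aggregation and time.

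In canonical Wnt signalling, a complex of Axin, APC, casein kinase 1 and GSK3 marks β-catenin for destruction. A Wnt ligand bound to its Frizzled and LRP receptors stops that complex, and so does a chemical inhibitor of GSK3, after which β-catenin enters the nucleus and acts with the DNA-binding factors of the TCF/LEF family. Many of the genes switched on in this way code for inhibitors of the same pathway, so that their level is often read as a report of signalling. In naive ESCs the GSK3 inhibitor is used because it relieves repression of pluripotency genes by Tcf7l1.

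Ribosome profiling sequences the mRNA stretches protected by translating ribosomes, so a footprint count follows both the amount of an mRNA and its ribosome occupancy. Values are the authors' normalised counts, and in each library every value was a whole multiple of its smallest step, which gave back the reads. Between 4075850 and 11455539 reads lay on genes per library, and 1 read was worth 1.49 in KO EBs, 1.56 in WT EBs, 0.533 in KO ESCs and 0.778 in WT ESCs. Mettl3 itself stood at 327 in KO EBs and 429 in WT EBs, and at 298 in KO ESCs and 563 in WT ESCs. Since the altered stretch of Mettl3 is unknown here, its summed count is no check of the knockout. No group had a replicate. Intervals are 95% exact intervals of a ratio of 2 libraries, and they and the floor of 3 reads per library cover counting error only.

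**Figure D1:**
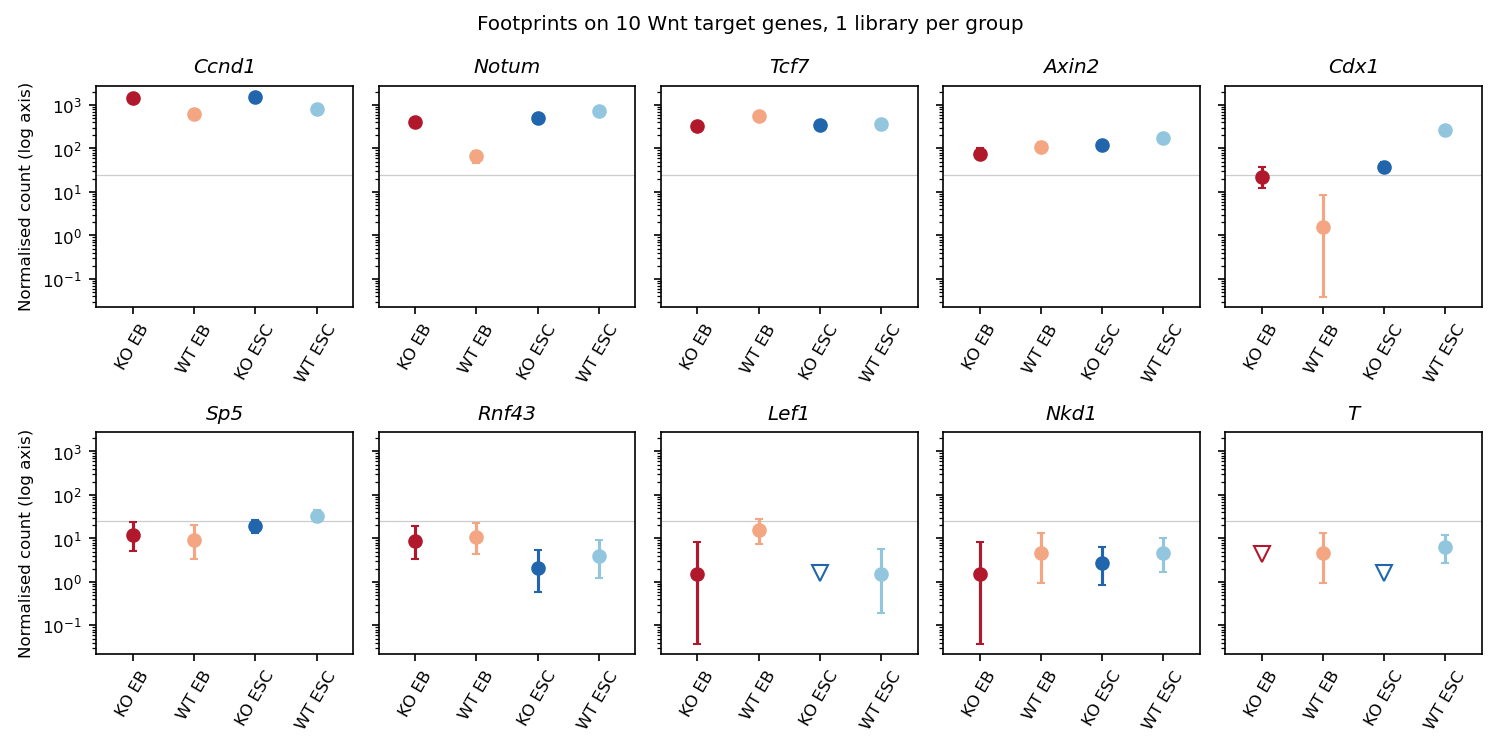
Normalised footprint count (log axis) of each of the 10 Wnt target genes in the KO EB, WT EB, KO ESC and WT ESC library, with 95% Poisson counting intervals. Open triangles mark libraries with 0 reads, drawn at the floor of 3 reads, and the grey line is the limit of 25; the upper row holds the 5 genes whose mean passed it, and in WT EBs Cdx1 rests on 1 read.

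The gene sets of the table limit how some of these genes can be seen. Of the 10 genes, 8 have 1 RefSeq entry in the table. Lef1 has 3 entries and Nkd1 has 2, and a footprint on a stretch that several entries share cannot be given to 1 of them. Mapped on GRCm38.p6, 89 coding bases of Lef1 belong to only 1 of its entries, against 1194 in its longest coding sequence, and for Nkd1 the same numbers are 312 and 1416. The 2 entries of these genes with no base of their own had 0 reads in all 4 libraries. For the 8 other genes the whole coding sequence was countable. Copies elsewhere in the genome were rare: of all 28-nt windows, 7.52% had one in Sp5, 0.116% in Ccnd1, 0.0401% in Axin2 and 0 in the other 7 genes.

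**Figure D2:**
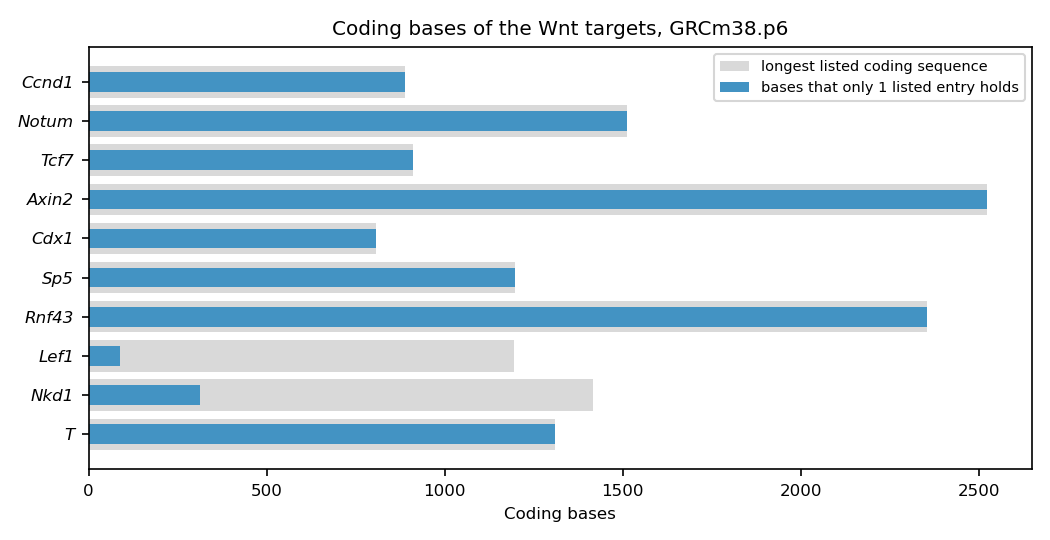
Coding bases of the longest listed entry of each gene (grey) and coding bases that belong to only 1 listed entry of the table (blue), from GRCm38.p6. In 8 genes the bars are equal, while Lef1 keeps 89 and Nkd1 312 bases on which a footprint is not shared between entries.

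Per kilobase of countable coding sequence, the level of these genes spanned a wide range. In KO EBs the normalised count per kb was 1597 for Ccnd1, 360.1 for Tcf7 and 273 for Notum, with no overlap between the counting intervals of neighbours in this order. Axin2 (30.2) and Cdx1 (27.7) came next there, with overlapping intervals. In WT EBs Ccnd1 (704) and Tcf7 (596) had overlapping intervals at the upper end, Notum (43.3) stood level with Axin2 (43.2), and Cdx1 (1.93) was last. Lef1 lay at 175 per kb in WT EBs, on its 89 countable bases. KO ESCs had Ccnd1 at 1738, Tcf7 at 385 and Notum at 338, and the intervals of Tcf7 and Notum overlapped. Cdx1 stood at 46.9 per kb in KO ESCs, next to Axin2 at 47.1, with overlapping intervals. In WT ESCs the order was Ccnd1 (906), Notum (489), Tcf7 (408), Cdx1 (334), Axin2 (67.6) and Sp5 (27.96), with no overlap between neighbours. Lef1 (17.5), Nkd1 (15.0), T (4.75) and Rnf43 (1.65) followed in WT ESCs, each with an interval that overlapped its neighbour's.

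Transcription factor genes of the posterior embryo come first. Cdx1 (NM_009880; chromosome 18, 61018862 to 61036199 in GRCm38.p6), a homeobox factor that patterns the trunk and intestine and a direct Wnt target, had a normalised count of 22.4 in KO EBs and 1.56 in WT EBs, against 37.9 in KO ESCs and 269 in WT ESCs. These values rest on 15 reads, 1 read, 71 reads and 346 reads in that order. WT ESCs were therefore high and the other 3 libraries low, with both EB libraries below both ESC libraries. In KO cells Cdx1 was 1.69-fold lower in EBs than in ESCs, with a 95% interval that spans equality (0.960 to 3.18). In WT cells it was 173-fold lower in EBs than in ESCs (30.8 to 6844) and stood at rank 3 from the lowest log2 fold among the 9670 genes with a mean of at least 25. As in any bulk sample, fewer cells with the mRNA and less of it per cell cannot be told apart.

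Sp5 and T are further factors of this class. Sp5 (NM_022435; chromosome 2, 70474923 to 70477726) encodes a zinc finger protein that Wnt signalling induces in the primitive streak, and it had 11.9 in KO EBs and 9.35 in WT EBs, against 19.2 in KO ESCs and 33.5 in WT ESCs, from 8, 6, 36 and 43 reads. Both EB libraries lay below both ESC libraries, as for Cdx1. In KO cells Sp5 was 1.61-fold lower in EBs than in ESCs (0.735 to 4.01), and in WT cells 3.58-fold lower (1.52 to 10.3). T, the Brachyury gene of the primitive streak and notochord (NM_009309; chromosome 17, 8434423 to 8442496), had 0 reads in KO EBs and 3 reads in WT EBs, against 0 reads in KO ESCs and 8 reads in WT ESCs. At this depth the KO libraries allow a normalised count of up to 4.48 in EBs and 1.60 in ESCs. With KO ESCs set to the floor of 3 reads, T was 3.89-fold lower in KO than in WT ESCs. That figure leaves out the counting error of the 8 reads in WT ESCs, so the true fold can be smaller. No fold is given for the EB libraries.

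The promoters of Sp5, T and Axin2 show what the sequence near the start site holds in Wnt targets that differ in their footprints. The windows are from RefSeq on GRCm38.p6 and run from 250 bases before to 50 after the start site, 5′ to 3′ along the gene. Capitals mark each match, on either strand, to a TCF/LEF core: CTTTGAA or its variant CTTTGAT, and likewise CTTTGTA and also CTTTGTT. Sp5 is shown for its 2 matches and T for its single one at the low end of the levels. Axin2 is shown as a steadily detected feedback gene, with no match in its only listed window. That window lies inside the gene span of Axin2, which begins at 108917828, so the 5′ end of the span was not searched. Sp5 lies at chr2:70474673-70474972 (plus strand), T at chr17:8434173-8434472 (plus strand) and Axin2 at chr11:108920099-108920398 (plus strand).
Sp5: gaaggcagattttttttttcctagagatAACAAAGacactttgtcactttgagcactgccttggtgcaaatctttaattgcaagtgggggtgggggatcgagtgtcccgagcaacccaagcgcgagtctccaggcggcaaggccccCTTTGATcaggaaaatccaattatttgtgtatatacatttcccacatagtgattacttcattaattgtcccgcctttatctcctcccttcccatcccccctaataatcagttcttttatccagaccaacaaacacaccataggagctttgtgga
T: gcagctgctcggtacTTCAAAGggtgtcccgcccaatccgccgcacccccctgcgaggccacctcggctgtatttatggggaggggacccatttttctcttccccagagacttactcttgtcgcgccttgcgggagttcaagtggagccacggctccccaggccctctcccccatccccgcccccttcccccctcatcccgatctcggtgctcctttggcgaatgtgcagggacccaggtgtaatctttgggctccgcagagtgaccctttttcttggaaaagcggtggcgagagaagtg
Axin2: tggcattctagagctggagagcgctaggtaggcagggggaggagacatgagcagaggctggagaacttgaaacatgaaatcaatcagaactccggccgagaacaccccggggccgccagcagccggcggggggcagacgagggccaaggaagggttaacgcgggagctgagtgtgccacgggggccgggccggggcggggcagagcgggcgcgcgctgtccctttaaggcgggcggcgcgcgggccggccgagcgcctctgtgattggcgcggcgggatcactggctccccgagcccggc

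In Sp5 the matches begin 222 bases (AACAAAG, the reverse complement of CTTTGTT) and 104 bases (CTTTGAT) before the start site. In T the match begins 235 bases before it (TTCAAAG, the reverse complement of CTTTGAA). Promoters were found for 7 of the 10 genes (Axin2, Sp5, Lef1, Nkd1, Tcf7, T and Rnf43), and 3 of these genes (Sp5, Lef1 and T) had a match in at least 1 promoter, as did 18.9% of all 27025 genes. A match stood in 3 of the 12 promoters of these genes and in 16.9% of all 32851 promoters listed. A match describes letters in a window and no binding was measured.

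Feedback inhibitors of the pathway make up the next class. Notum (NM_175263; chromosome 11, 120653788 to 120661193) encodes a secreted carboxylesterase that removes the lipid Wnt ligands need for signalling. It had 413 in KO EBs and 65.5 in WT EBs, against 512 in KO ESCs and 739 in WT ESCs, from 277, 42, 959 and 949 reads. The WT EB library stood far below the other 3, and both EB libraries lay below both ESC libraries. From ESCs to EBs, Notum was 1.24-fold lower in KO cells (1.08 to 1.42) and 11.3-fold lower in WT cells (8.28 to 15.8), at rank 62 from the lowest of 9670 genes in the WT comparison.

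Axin2 (NM_015732; chromosome 11, 108917828 to 108950783), the scaffold of the destruction complex that Wnt signalling itself induces, had 76.1 in KO EBs and 109 in WT EBs, against 119 in KO ESCs and 170 in WT ESCs, from 51, 70, 223 and 219 reads. Each EB library was below each ESC library, yet KO ESCs and WT EBs were close to each other. The EB value was 1.56-fold lower than the ESC value in KO cells (1.15 to 2.16) and 1.56-fold lower in WT cells (1.19 to 2.08). The 2 changes differed by −0.0002 on the log2 scale without a pseudocount, with a counting interval of −0.59 to 0.59.

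Rnf43 and Nkd1 were close to the limit of detection. Rnf43 (NM_172448; chromosome 11, 87663087 to 87735539), a membrane ubiquitin ligase that removes Frizzled receptors, had 6 reads in KO EBs and 7 reads in WT EBs, against 4 reads in KO ESCs and 5 reads in WT ESCs. The normalised counts were 8.96 and 10.9 in EBs, against 2.13 and 3.89 in ESCs, in the same order of genotypes. Rnf43 was 4.20-fold higher in KO EBs than KO ESCs (0.995 to 20.2) and 2.80-fold higher in WT EBs than WT ESCs (0.766 to 11.2), and both intervals include equality. Nkd1 (chromosome 8, 88521342 to 88594887), which binds Dishevelled and dampens signalling, had 1 read in KO EBs, 3 reads in WT EBs, 5 reads in KO ESCs and 6 reads in WT ESCs. All lay on NM_027280, its only entry with bases of its own, and no difference between libraries was detectable at this depth.

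Lef1 and Tcf7 encode DNA-binding partners of β-catenin and are themselves Wnt targets. Tcf7 (NM_009331; chromosome 11, 52246527 to 52283383) had 328 in KO EBs and 544 in WT EBs, against 351 in KO ESCs and 372 in WT ESCs, from 220, 349, 658 and 478 reads. WT EBs were high and the other 3 libraries close together. The ratio of KO EBs to KO ESCs was 0.936 for Tcf7 (0.799 to 1.09), and it was 1.46-fold higher in WT EBs than WT ESCs (1.27 to 1.68). Lef1 (chromosome 3, 131110297 to 131224357) had 1 read in KO EBs and 10 reads in WT EBs, against 0 reads in KO ESCs and 2 reads in WT ESCs, all on NM_001276402. That is 10.0-fold higher in WT EBs than WT ESCs (2.13 to 94.0), measured on the few bases that this entry does not share.

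Ccnd1 (NM_007631; chromosome 7, 144929931 to 144939831), which encodes cyclin D1 of the G1 phase, had 1418 in KO EBs and 625 in WT EBs, against 1544 in KO ESCs and 805 in WT ESCs, from 950, 401, 2894 and 1034 reads. Both KO libraries stood above both WT libraries, and the EB and ESC libraries overlapped. In EBs it was 1.09-fold lower than in ESCs in KO cells (1.01 to 1.17) and 1.29-fold lower in WT cells (1.15 to 1.45).

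Set side by side, the change from ESCs to EBs was under 2-fold in KO cells for all 5 genes that passed the limit of 25 and beyond it in WT cells for 2. With a pseudocount of 1, 0 of the 5 were at least 2-fold lower or higher in KO EBs than KO ESCs, where over all 9670 genes 6.65% were lower and 9.31% were higher. In WT cells 2 of the 5 (Cdx1 and Notum) were at least 2-fold lower and 0 higher, against 8.25% and 11.0% of all genes. Cdx1 passed the limit of 25 only through WT ESCs, since its other 3 libraries average 20.6, so the filter partly fixes its count as lower against them; at a mean of at least 100 the count was 1, Notum. The log2 folds of the 5 had a median of −0.31 in KO cells and −0.64 in WT cells, beside medians of −0.08 and −0.02 over all genes. Both EB libraries were below both ESC libraries for 3 of the 5 (Cdx1, Notum and Axin2) and above them for 0. Over all genes the shares were 17.3% and 15.7%. With 5 genes these counts describe the genes named and no more.

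**Figure D3:**
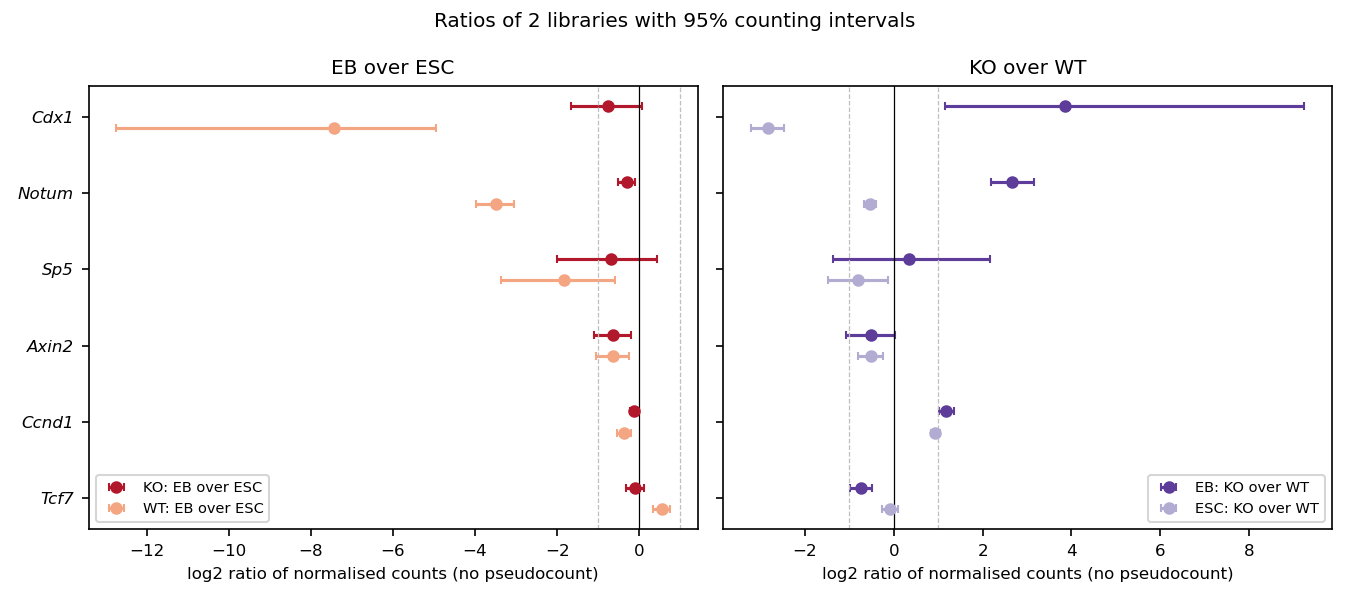
Log2 ratio of 2 libraries, without a pseudocount, for the 5 genes that passed the limit of 25 and Sp5, with 95% counting intervals and dashed lines at 2-fold. On the left, EBs over ESCs: the KO points of Cdx1 and Notum lie within 2-fold and the WT points beyond 2-fold lower; on the right, KO over WT: Cdx1 and Notum lie on opposite sides of 0 in EBs and in ESCs.

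A model across both genotypes gave few calls. On the recovered reads, edgeR's quasi-likelihood test with genotype and stage as terms set the 2 EB libraries against the 2 ESC libraries, and its only measure of spread is how far the stage change differs between genotypes. It called 20 genes higher (0.207%) and 5 lower (0.0517%) in EBs, among them 0 of the 5 Wnt targets, and 1140 genes had an unadjusted p under 0.05. Its adjusted p was 0.476 for Cdx1, with a log2 fold of −3.17 and both EB libraries below both ESC libraries, and 0.449 for Notum, with a log2 fold of −1.79. DESeq2 on the same reads called 274 genes higher (2.83%) and 101 lower (1.04%), and Cdx1 was among the lower ones, with a log2 fold of −3.50 (SE 1.07) and an adjusted p of 0.0326. Cdx1 entered the fit only through WT ESCs, which lie on the ESC side of this contrast, so the filter partly fixes that call. Its stage term also averages unlike changes, 1.69-fold lower in KO cells and 173-fold lower in WT cells. For Notum DESeq2 gave −1.83 (SE 0.61) and an adjusted p of 0.0619. Axin2, Ccnd1 and Tcf7 had log2 folds of −0.62, −0.22 and 0.25 in edgeR, with adjusted p of 0.677, 0.837 and 0.858 in that order.

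The next comparison asks how KO and WT cells differed at each stage. An effect of the knockout cannot be told apart from any other difference between the lines or libraries, as each had 1 library. In EBs, 3 of the 5 genes were at least 2-fold higher in KO (Cdx1, Notum and Ccnd1) and 0 at least 2-fold lower. Over all genes 15.2% were higher and 12.2% lower. Cdx1 passed the filter only through WT ESCs, which are not part of this comparison, and it was low in both EB libraries. At a mean of at least 100, which leaves out Cdx1, the count of higher genes was 2 (Notum and Ccnd1). Notum was 6.32-fold higher in KO than in WT EBs (4.55 to 8.96), at rank 215 from the highest. Cdx1 was 14.4-fold higher (2.21 to 605), with 15 reads against 1. Ccnd1 was 2.27-fold higher (2.02 to 2.56). On the other side were Tcf7, 1.66-fold lower in KO EBs (1.40 to 1.97), and Axin2, 1.43-fold lower with an interval that spans equality (0.985 to 2.10). Lef1 was 10.4-fold lower (1.49 to 453) on 1 read against 10.

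In ESCs the order was another one. Cdx1 was 7.11-fold lower in KO than in WT ESCs (5.49 to 9.31), at rank 27 from the lowest. It makes up the count of 1 of the 5 at least 2-fold lower (4.42% of all genes), and as it passed the filter only through WT ESCs, nothing is read from that count, which was 0 at a mean of at least 100. None of the 5 was at least 2-fold higher, against 10.6% of all genes. Ccnd1 came close to that limit, 1.92-fold higher in KO ESCs (1.79 to 2.06), and passed it when each library was scaled to the same total. Notum was 1.44-fold lower (1.32 to 1.58), Axin2 1.43-fold lower (1.18 to 1.73) and Sp5 1.74-fold lower (1.09 to 2.79). For Tcf7 the ratio was 0.943 (0.837 to 1.06). The comparison of KO with WT ESCs and that of WT EBs with WT ESCs share the WT ESC library, so a high value there enters both for Cdx1.

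Across both stages the libraries of the 2 genotypes did not overlap for Ccnd1, which was higher in KO, and for Tcf7, which was lower. For Tcf7 the ESC values, 351 in KO and 372 in WT, lay within counting error of each other (ratio 0.943, 0.837 to 1.06). Over all genes 21.7% had both KO libraries above both WT libraries and 24.8% had both below. With stage and genotype as terms, edgeR called 0 genes between KO and WT at an adjusted p under 0.05 (0.00%), while 1556 stood under 0.05 before adjustment. DESeq2 called 251 higher (2.60%) and 71 lower (0.734%), with 0 of the 5 Wnt targets among them. Ccnd1 had an adjusted p of 0.163 by edgeR, with a log2 fold of 1.08, and of 0.0592 by DESeq2 (1.09, SE 0.36), and both KO libraries were higher than both WT libraries.

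The difference between the changes of the 2 genotypes from ESCs to EBs, KO minus WT, was 5.99 on the log2 scale for Cdx1 and 3.17 for Notum, at ranks 3 and 79 from the highest. Without a pseudocount it was 6.67 for Cdx1 (counting interval 3.73 to 9.62) and 3.19 for Notum (2.70 to 3.67). These were the 2 of the 5 genes at 1 or more, where 11.4% of all genes were, and 0 of the 5 were at −1 or less, where 12.5% were. The other 3 stood at 0.24 for Ccnd1, 0.0018 for Axin2 and −0.64 for Tcf7. Cdx1 passed the filter only through WT ESCs, and a high value there raises this difference. The filter therefore partly fixes the rank of Cdx1 and the count of 2. At a mean of at least 100 that count was 1, Notum.

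The genes thus had unlike patterns over the 4 libraries. As the Euclidean distance between log2 profiles centred on their mean, Axin2 and Tcf7 were closest of the 5, at 0.93. Cdx1 and Tcf7 were farthest apart, at 5.20, with Cdx1 and Notum at 2.47. The profiles were not scaled, so genes that vary little come out close. From WT ESCs to WT EBs, Axin2 and Tcf7 moved in opposite directions, by −0.64 and 0.55 on the log2 scale. By the same distance over 7339 named genes with a mean of at least 100, those nearest to Axin2 were Ing1 (0.061), Mcm6 (0.071) and Fmr1 (0.073). Nearest to Cdx1 were Xaf1 (1.54), Pdha2 (1.77) and Pramel6 (1.79), each farther away than the genes nearest to Axin2. Over 4 libraries such likeness is a description of these libraries.

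Other genes of the pathway were read from 8 lists with 109 genes, and 21 of these had no read in any library, 19 of them genes with 2 or more entries. Ctnnb1, which encodes β-catenin, and Tcf7l1 are among those 19, and they are named for their place in the pathway after their values were seen. Their zeros say nothing of their level, since the entries share all or nearly all of the coding sequence.

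Of 15 further direct Wnt targets, 6 passed the limit of 25. In KO cells 2 of the 6 were at least 2-fold higher in EBs than in ESCs and 0 lower, with a median log2 fold of 0.67, where 9.31% and 6.65% of all genes were. In WT cells 4 were higher and 1 lower, with a median of 1.27, against 11.0% and 8.25% of all genes. Dkk1, among the 4 higher genes in WT cells, passed the limit only through WT EBs, so the filter partly fixes that count. Ascl2, a helix-loop-helix factor of intestinal stem cells that is also on the trophoblast list, had 519 in KO EBs and 70.1 in WT EBs, against 158 in KO ESCs and 24.9 in WT ESCs, and was 7.41-fold higher in KO than in WT EBs (5.42 to 10.3). Apcdd1, a membrane inhibitor of Wnt signalling, stood at 190 in KO EBs and 65.5 in WT EBs, against 272 in KO ESCs and 223 in WT ESCs. From ESCs to EBs it was 1.44-fold lower in KO cells (1.18 to 1.76) and 3.40-fold lower in WT cells (2.45 to 4.82). Znrf3, a ligase related to Rnf43, had 369 in KO EBs and 161 in WT EBs, against 281 in KO ESCs and 249 in WT ESCs. It was 1.31-fold higher in KO EBs than KO ESCs (1.13 to 1.53) and 1.55-fold lower in WT EBs than WT ESCs (1.24 to 1.96). Dkk1, a secreted antagonist that blocks LRP receptors, was high in WT EBs alone, with 26.9 in KO EBs and 140 in WT EBs, against 8.54 in KO ESCs and 7.01 in WT ESCs. It was 5.22-fold lower in KO than in WT EBs (3.12 to 9.21) and 20.02-fold higher in WT EBs than WT ESCs (10.1 to 45.2). Fst, which encodes the activin-binding protein follistatin, was 2.71-fold lower in KO than in WT EBs (2.16 to 3.42).

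Naive genes that Tcf7l1 represses showed a smaller spread. Of 6 listed 5 passed. From ESCs to EBs 0 of them were lower by 2-fold or more in KO cells (6.65% of all genes) and 1 in WT cells (8.25%). That gene was Tfcp2l1, a naive transcription factor, with 1620 in KO EBs and 1446 in WT EBs, against 2741 in KO ESCs and 5653 in WT ESCs. Klf2, another naive factor, stood at 6444 in KO EBs and 2720 in WT EBs, against 5001 in KO ESCs and 3245 in WT ESCs, and was 2.37-fold higher in KO than in WT EBs (2.24 to 2.51). The median log2 fold of the 5 was 0.05 in KO cells and −0.67 in WT cells.

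Of 21 genes for Wnt ligands and their secretion 3 passed, namely Wnt6, Wnt9a and Wls. Wnt6 and Wnt9a passed only through KO EBs, their highest library, so no count of the 3 is read. Of the 5 genes of this list without a read, 3 (Wnt5b, Wnt11 and Porcn) have 2 or more entries that share all their coding bases, and their zeros do not show a low level; Wnt1 and Wnt9b have 1 entry each. These 5 and Wnt9a are named after their values were seen. Wnt6 had 116 in KO EBs and 17.1 in WT EBs, against 28.8 in KO ESCs and 12.5 in WT ESCs, and was 6.79-fold higher in KO than in WT EBs (3.59 to 14.2). Wls, the carrier that takes Wnt ligands to the cell surface, had 908 in KO EBs and 452 in WT EBs, against 968 in KO ESCs and 332 in WT ESCs. Its KO values were 2.01-fold higher in EBs (1.74 to 2.32) and 2.91-fold higher in ESCs (2.62 to 3.24).

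Receptors and the R-spondin arm had 14 of 23 genes past the limit, of which 7 were at least 2-fold higher and 0 lower in KO than in WT EBs, with a median log2 fold of 1.07. Over all genes 15.2% were higher and 12.2% lower in that comparison, with a median of −0.07. Fzd9 had 213 in KO EBs and 35.8 in WT EBs, 5.95-fold higher (3.82 to 9.70), and Ror2, a receptor for β-catenin-independent signalling, 1199 and 273, 4.39-fold higher (3.73 to 5.21). Fzd2 was 4.93-fold higher in KO than in WT ESCs (4.07 to 6.02). Fzd7 was 1.25-fold lower in KO than in WT EBs (1.15 to 1.36). It was higher in EBs than in ESCs by 3.18-fold in KO cells (2.91 to 3.48) and by 3.21-fold in WT cells (2.93 to 3.51). For Fzd10 the ratio of KO EBs to KO ESCs was 0.669 (0.534 to 0.831), and it was 5.53-fold lower in WT EBs than WT ESCs (4.15 to 7.52).

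Among secreted antagonists 8 of 13 passed, with 3 at least 2-fold higher and 2 lower in KO than in WT EBs (15.2% and 12.2% of all genes). The 2 lower ones, Dkk1 and Frzb, passed only through WT EBs, so nothing is read from that count. Sfrp1, which binds Wnt ligands, was low in WT EBs alone, with 2596 in KO EBs and 460 in WT EBs, against 2633 in KO ESCs and 2560 in WT ESCs. It was 5.65-fold higher in KO than in WT EBs (4.99 to 6.41) and 5.57-fold lower in WT EBs than WT ESCs (4.94 to 6.29). Dkk3 was 3.83-fold higher in KO than in WT EBs (2.45 to 6.20).

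In the destruction complex and Dishevelled list 12 of 15 passed, and KO EBs had 4 genes at or beyond 2-fold below WT EBs and 0 above (12.2% and 15.2% of all genes), with a median log2 fold of −0.79. Apc2, among the 4 lower ones, passed only through WT EBs, so the filter partly fixes that count. Apc, the large scaffold of the complex, had 309 in KO EBs and 1152 in WT EBs, against 605 in KO ESCs and 921 in WT ESCs, 3.73-fold lower in KO than in WT EBs (3.19 to 4.37). Gsk3b, a gene for GSK3, was lower in EBs than in ESCs by 2.81-fold in KO cells (2.41 to 3.28) and by 1.46-fold in WT cells (1.29 to 1.65). Gsk3a, the other GSK3 gene of the list, was 1.17-fold higher in KO EBs than KO ESCs (1.06 to 1.29). In WT cells Gsk3a stood at 801 in EBs and 837 in ESCs. Amer1, which brings APC to the membrane, was 2.47-fold lower in KO than in WT EBs (1.83 to 3.37) and 4.56-fold lower in KO than in WT ESCs (3.49 to 6.02). Of 14 genes for β-catenin and nuclear cofactors 7 passed. Of these, 1 was at least 2-fold higher and 2 lower in KO than in WT EBs, against 15.2% and 12.2% of all genes. Tcf7l2 is among the 2 lower ones and passed only through WT EBs, so the filter partly fixes that count. Bcl9l, a coactivator of β-catenin, was 2.61-fold higher in KO than in WT ESCs (2.22 to 3.08).

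Among D-type cyclins and their partners 4 of 5 passed. Ccnd2, the sister gene of Ccnd1, had 673 in KO EBs and 232 in WT EBs, against 170 in KO ESCs and 91.1 in WT ESCs. It was 2.90-fold higher in KO than in WT EBs (2.40 to 3.51) and 3.97-fold higher in KO EBs than KO ESCs (3.43 to 4.60), whereas Ccnd1 was high at both stages. Cdk6, a kinase that D-type cyclins activate, was 2.68-fold higher in KO than in WT EBs (1.97 to 3.68), and Cdk4 1.24-fold lower (1.15 to 1.35). Rb1, the retinoblastoma gene that these kinases act on, was 3.57-fold lower in KO than in WT EBs (2.92 to 4.40).

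**Figure D4:**
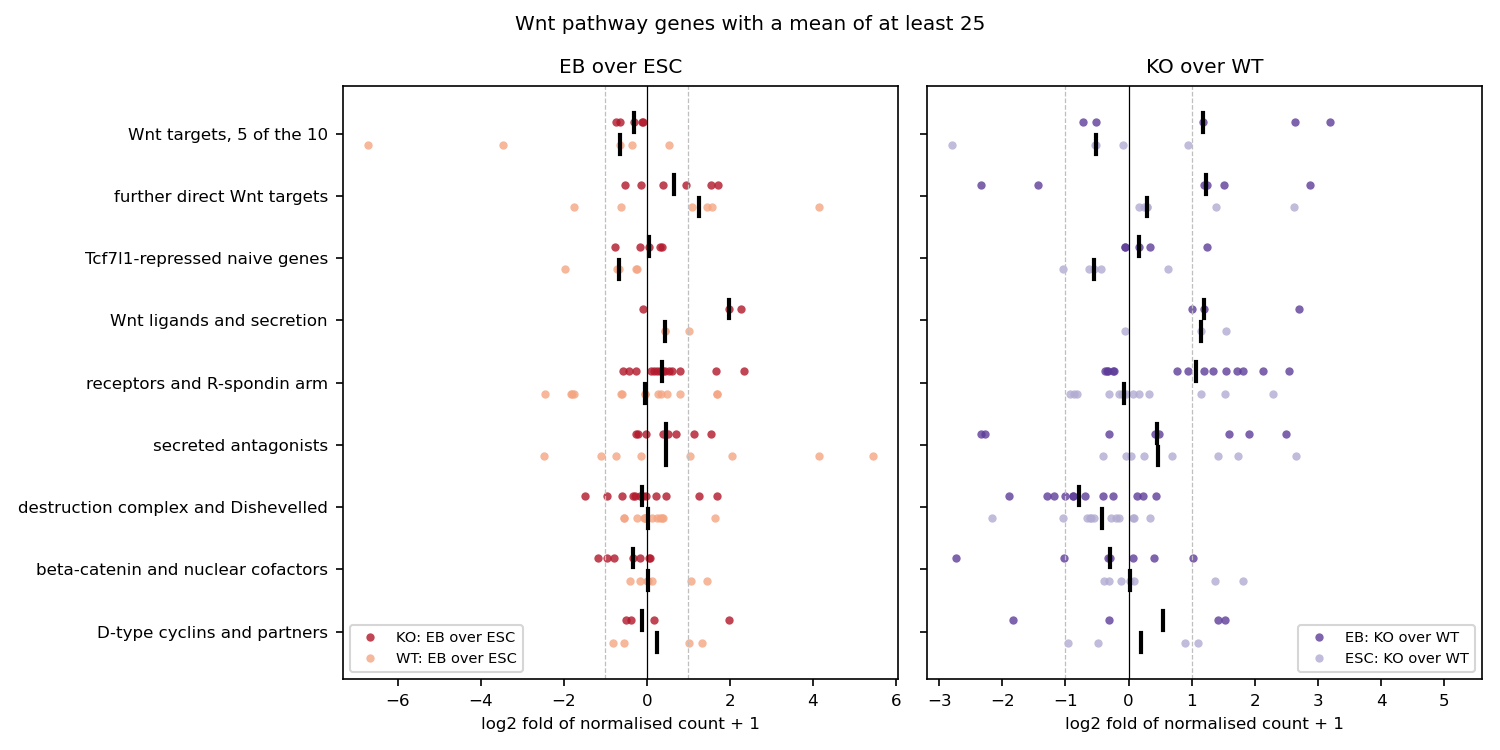
Log2 fold of normalised count + 1 for the genes of each pathway list with a mean of at least 25, for EBs over ESCs (left) and KO over WT (right); each point is a gene, black bars are list medians and dashed lines mark 2-fold. In KO EBs over WT EBs the receptors lie mostly to the right (median 1.07) and the destruction complex mostly to the left (median −0.79).

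Markers of other cell types moved along with these differences, and their part in them was not tested. The summed normalised count of 17 visceral endoderm markers was 18324 in KO EBs and 74976 in WT EBs, against 6082 in KO ESCs and 7730 in WT ESCs. Apoe held most of it outside WT EBs, and without that gene the sum was 3326 in KO EBs and 62268 in WT EBs, against 1054 in KO ESCs and 664 in WT ESCs. Of the 16 that passed, 15 were at least 2-fold lower in KO than in WT EBs, against 12.2% of all genes. The median log2 fold over the 16 was −3.87. Of the 15, 3 (Ttr, Foxa2 and Sox7) passed only through WT EBs, so the filter partly fixes that count. Dab2, whose entries share most of their sequence, was at 0 throughout. The 15 fibroblast and matrix markers summed to 18152 in KO EBs and 11276 in WT EBs, against 7251 in KO ESCs and 5919 in WT ESCs. Sparc was the most abundant, and without it the sum was 12915 in KO EBs and 2590.3 in WT EBs, against 3170.2 in KO ESCs and 634 in WT ESCs. Of 9 that passed, 7 were at least 2-fold higher in KO than in WT EBs (median log2 fold 2.83) and 8 in KO than in WT ESCs (1.76), and 0 were lower. Over all genes 15.2% were higher and 12.2% lower in EBs, and 10.6% and 4.42% in ESCs. Fn1, Postn, Dcn, Pdgfra and Pdgfrb were at 0 in all 4, each with 2 or more entries that share most or all coding bases. Naive markers, 12 genes, summed to 23580 in KO EBs and 15498 in WT EBs, against 21236 in KO ESCs and 32359 in WT ESCs, with Tbx3, whose entries also share nearly all bases, at 0. Both EB libraries thus carried footprints of naive genes, and WT EBs less than WT ESCs.

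Markers of the primitive streak and early mesoderm, a class listed here without T itself, numbered 16, and 6 passed the limit. They summed to 5609 in KO EBs and 2243 in WT EBs, against 2787 in KO ESCs and 2418 in WT ESCs. Nodal held most of each sum, with 3996 in KO EBs and 1135 in WT EBs, against 1753 in KO ESCs and 1776 in WT ESCs. In KO over WT EBs, 4 of the 6 were at least 2-fold higher, against 15.2% of all genes. Hand1, among the 4, passed only through KO EBs, so the filter partly fixes that count. Eomes and Fgf8 had no read in any library, and as their entries share most coding bases, this does not show a lack of expression. The 12 trophoblast and simple epithelium markers summed to 5262 in KO EBs and 6420 in WT EBs, against 1342 in KO ESCs and 418 in WT ESCs. The 10 neural markers summed to 1557 in KO EBs and 751 in WT EBs, against 2024 in KO ESCs and 1964 in WT ESCs. Tubb3 held most of each neural sum, with 1133 in KO EBs and 553 in WT EBs, against 1341 in KO ESCs and 1418 in WT ESCs. For the 11 markers of endothelium and blood the sums were 700.1 and 845, against 521 and 349, in the same order.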

How the data were processed

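Footprints were measured in 4 libraries, 1 per group, and groups were taken from the library titles. The submitters' processing notes name DESeq, HTSeq 0.6.0, TopHat2 2.0.10, Bowtie and CASAVA 1.8.2, with mm10 as the build. Their settings, the annotation version and any use of strand are unknown here. What the authors deposited is a normalised signal, read counts per RefSeq coding sequence that the authors divided by 1 factor per library. Whole reads were recovered, since 100% of values fell on multiples of the step of 1 read within 0.01; on them edgeR called 20 genes higher and 5 lower by stage and 0 by genotype. The 5 summary entries, among them reads without a unique place (48.4% to 55.7% of a library) and ambiguous reads (8.62% to 10.5%), stayed out of all totals. Of 27442 coding sequence entries, 27079 matched a symbol in a RefSeq table of GRCm38.p6, the assembly of mm10.

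The log2 fold was that of value + 1, a gene counted from 2-fold, and a pair of single libraries got no p-value. Genes with a mean of at least 25 were the background. Ratios of reads have conditional exact binomial (Clopper-Pearson) intervals, and the difference of 2 changes a normal interval from the read counts. A library at 0 took a floor of 3 reads. Models used edgeR 4.0.16 and DESeq2 1.42.0 (R 4.3.3) with Benjamini-Hochberg adjustment, after a check on simulated data; Python was 3.11.15. The genes named are all 10 targets, and from each pathway list per comparison up to 2 at either end with a value of at least 100. Not every gene that this rule takes is described. Targets, lists and rules were chosen with earlier results of these data known. Alternatives covered pseudocount, scaling, RefSeq entry, fold, filter and model.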

Additional observations from a re-analysis of the deposited data

Results flagged for a closer look

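Cdx1, Notum and Tcf7 had effects of opposite sign in 2 groups under the same contrast, and with 1 library per group none of these differences was tested against replicates. For Cdx1, KO was above WT in EBs and below it in ESCs, with log2 folds of KO over WT of 3.19 in EBs and −2.80 in ESCs, the EB value resting on 15 reads against 1. Notum had log2 folds of KO over WT of 2.64 in EBs and −0.53 in ESCs. Tcf7 had log2 folds of EBs over ESCs of −0.10 in KO cells, where the counting interval of the ratio includes 1, and 0.55 in WT cells.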

How the results depend on the processing

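No paired analysis was possible because each group had 1 library and the labels give no replicate numbers, and for the same reason none could be left out. This concerns a block by replicate number: the models with genotype and stage as terms do set each stage change within its genotype. Log2 values of single genes were recomputed, 42 for each alternative of pseudocount, scaling and RefSeq entry. The 42 for the RefSeq entry could not move, since all reads of each target lay on 1 entry. Nor could the 42 without a pseudocount leave the interval, since each interval was built around that same ratio. Only the remaining settings could therefore have moved a value out. Over all alternatives 251 stayed inside the counting interval and 1 did not. That one was Ccnd1 in KO over WT ESCs, 1.07 with libraries scaled to the same total. That scaling moved the median of all genes by 0.125 in KO over WT ESCs and by 0.117 in KO over WT EBs, and gave 1 Wnt target at least 2-fold higher in KO ESCs instead of 0. With 1.5-fold as the limit, 2 targets were lower in KO EBs than in KO ESCs instead of 0, 1 was higher in KO than in WT ESCs instead of 0, 1 was lower in KO than in WT EBs instead of 0, and 1 had a lower difference of changes instead of 0.

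A pair of filters was added after seeing the data. The counts under them are of genes at least 2-fold higher or lower, or 1 or more apart on the log2 scale for the difference. Without a filter, over all 10 genes, EBs exceeded ESCs for 2 in KO cells and for 2 in WT cells (both 0 with the filter), 3 were lower in KO than in WT ESCs instead of 1, 3 were lower in KO than in WT EBs instead of 0, 1 had a lower difference instead of 0, and the median of KO over WT EBs turned from 1.18 to −0.39. With a mean of at least 100, which leaves out Cdx1, that median was 0.33, 1 gene was lower in WT EBs than in WT ESCs instead of 2, 0 in KO than in WT ESCs instead of 1, and 1 had a higher difference instead of 2. Fewer or more genes tested is the only change in these.

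DESeq2 called 1 target in EBs against ESCs where edgeR called 0. This was Cdx1, which entered the fit only through WT ESCs. Counts over all genes, taken at the same limits of 2-fold or of 1 on the log2 scale, followed the filter. At a mean of at least 100, EBs were at least 2-fold above ESCs for 456 genes and at least 2-fold below them for 376 in KO cells. In WT cells these counts were 568 and 397. With the same limits, 515 were higher and 209 lower in KO over WT ESCs, 810 and 803 in KO over WT EBs, and 612 and 742 in the difference. Without a filter these were 2096 and 1475, 2192 and 1821, 2090 and 1087, 3100 and 2096, and 2602 and 2353. Depth limits Sp5, T, Rnf43, Nkd1 and Lef1, each with 43 reads or fewer in every library.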
